A study of Homo sapiens with 9 samples.

Results

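The genes described here are 3 classical cadherins (*CDH1*, *CDH2* and *CDH3*), 2 catenins (*CTNNB1* and *CTNND1*), 4 transcription factors of epithelial–mesenchymal transition, or EMT (*ZEB1*, *ZEB2*, *SNAI1* and *SNAI2*), and the mesenchymal filament gene *VIM*. They were chosen by symbol, and all 10 were found among the 59452 gene symbols of the deposited count table. The cells were MDA-MB-453, a human breast cancer line labelled triple-negative and wild type. Every library comes from the same line, and no gene was altered for the experiment. There were 3 libraries of attached cells with vehicle (DMSO), 3 of cells in forced suspension with vehicle, and 3 of suspended cells with 10 µM AT0174, written AT-0174 below, an inhibitor of the tryptophan-degrading enzymes TDO2 and IDO1. The study's RNA-seq methods state this dose and DMSO for another cell line, and name no drug for the MDA-MB-453 set. Suspension was forced by plates coated with poly-HEMA, to which cells cannot attach, and all 9 cultures were taken at 48 hours. Attached cells with AT-0174 were not among the groups, so the drug was compared in suspension alone. The study's methods call the 3 libraries of a condition biological triplicates, and the p-values measure the spread between these libraries.

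Cadherins are transmembrane proteins that bind the cadherins of neighboring cells through calcium and so hold epithelial sheets together. Their cytoplasmic tails bind p120-catenin (*CTNND1*), which keeps the cadherin at the membrane, and β-catenin (*CTNNB1*), which links it through α-catenin to actin and also acts as a transcription cofactor of Wnt signaling. In EMT, factors of the SNAI and ZEB families bind E-box sequences and repress *CDH1*, while N-cadherin and vimentin rise. Carcinoma cells that detach lose contact with matrix but can keep contact with each other through the cadherin–catenin complex.

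Estimated counts per library ran from 36649997 to 48019126. Where a gene had 0 counts, up to 3 remain possible by counting error alone, which is 0.0625 to 0.0819 CPM, the count scaled to a fixed library total. Of the line's 10 luminal markers, all were read in every library, with *ERBB2* at 398 to 436 TPM, a count scaled to transcript length and library, and *GATA3* at 903 to 1077 TPM. The basal keratins *KRT5*, *KRT14* and *KRT17* had at most 4 counts in any library, as did *ESR1*. Of the 8 basal markers listed, 4 had enough counts to be tested, and all 8 summed to at most 6.38 TPM. The receptor genes *ESR1* and *PGR* summed to at most 0.321 TPM, and 1 of the 2 had enough counts to be tested. The 8 leukocyte markers summed to at most 0.392 TPM and the 5 endothelial markers to at most 0.287 TPM. In bulk RNA, fewer cells with a transcript and less of it per cell cannot be told apart.

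Of the 10 genes, 5 were read at 157 or more counts in every library, and 5 had at most 27 counts in any. On the TPM scale, which divides by transcript length and so allows genes to be compared, *CTNNB1* stood highest in attached cells at 130 ± 5.20 TPM (mean ± SD, n = 3). *CTNND1* followed at 99.0 ± 4.21 TPM, *CDH1* at 27.5 ± 1.52 TPM, *CDH2* at 8.81 ± 0.221 TPM and *CDH3* at 6.18 ± 1.22 TPM, and no 2 neighbors in this order overlapped. The values of *SNAI1* (0.328 ± 0.131 TPM) and *ZEB1* (0.223 ± 0.0848 TPM) lay far below and overlapped each other. *VIM*, *ZEB2* and *SNAI2* were at or near 0. The RNA of both catenins thus stood above that of the 3 cadherins, among which *CDH1* led.

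**Figure D1:**
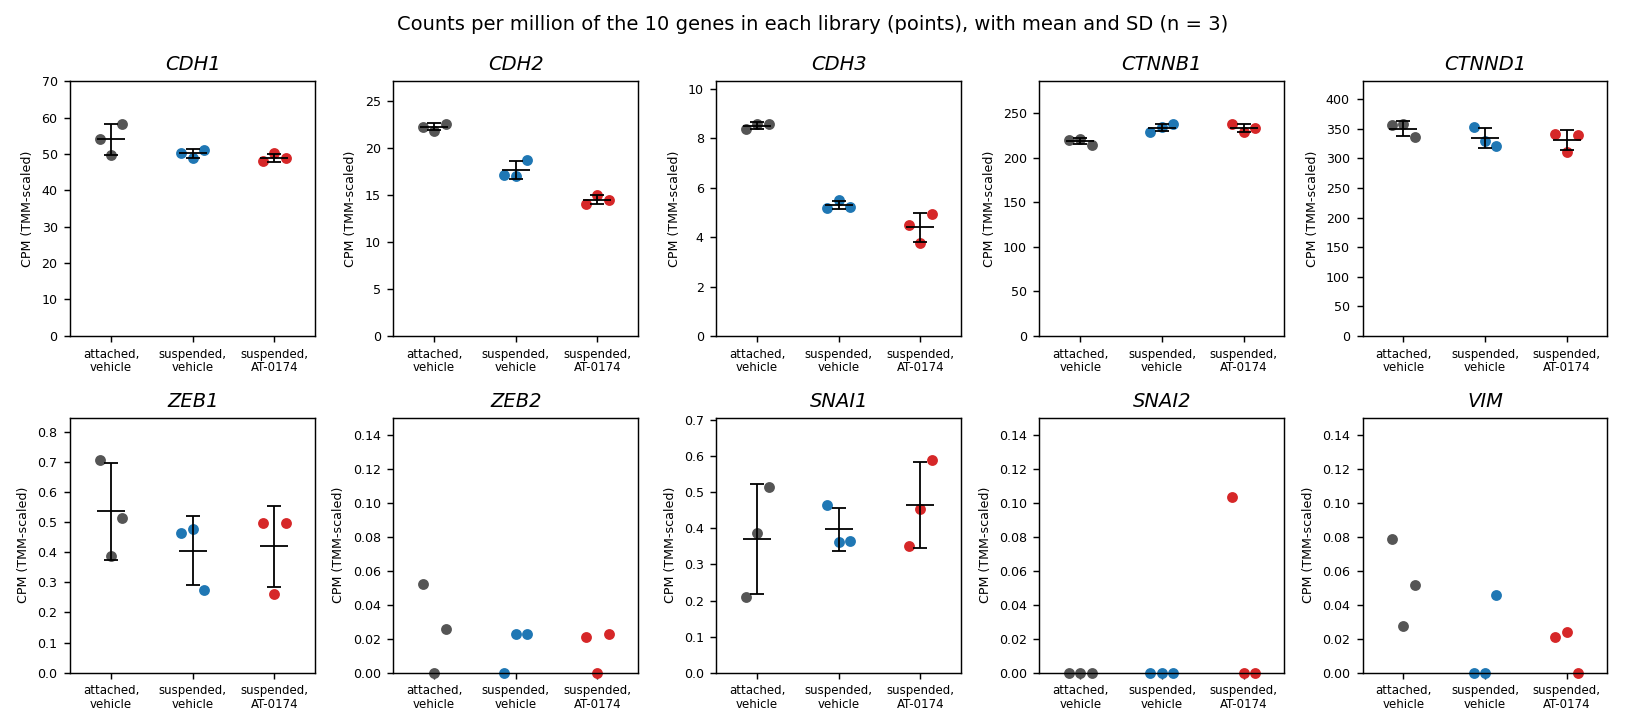
CPM (TMM-scaled, y axis from 0) of each of the 10 genes in each library, with points for libraries and bars for the mean and SD of 3 libraries where every library had more than 3 counts. *CDH2* steps down from 21.9–22.6 in attached cells to 17.1–18.7 in suspended cells and at most 15.0 with AT-0174, whereas *ZEB2*, *SNAI2* and *VIM* stay at or near 0.

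In suspension with vehicle, 2 cadherins fell and β-catenin rose, by 6.97% to 37.7%. Of the 7 genes with enough counts to be tested, 3 passed the threshold against attached cells, 1 higher and 2 lower. Over all genes tested, 3297 of 15528, or 21.2%, passed it in this comparison, 1620 (10.4%) higher and 1677 (10.8%) lower. The median log2 fold change of the 7 was -0.11, and that of all genes tested was 0.00. The CPM values of the 2 conditions did not overlap for 3 of the 7, and for 38.1% of all genes tested. *ZEB2*, *SNAI2* and *VIM* did not pass the filter on low counts and were not tested.

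With AT-0174 in suspended cells, 1 of the 7, *CDH2*, passed the threshold, and it was lower. Over all genes tested, 121, or 0.779%, passed it, 81 (0.522%) higher and 40 (0.258%) lower. The median log2 fold change of the 7 was -0.02, beside 0.00 for all genes tested. CPM values of the treated and untreated libraries did not overlap for 2 of the 7, *CDH2* and *CDH3*, and for 15.4% of all genes tested. Both comparisons use the suspended vehicle libraries, so they are not independent of each other. Adjusted p-values throughout come from the quasi-likelihood test of edgeR after Benjamini–Hochberg adjustment over every gene tested, and the threshold was 0.05.

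**Figure D2:**
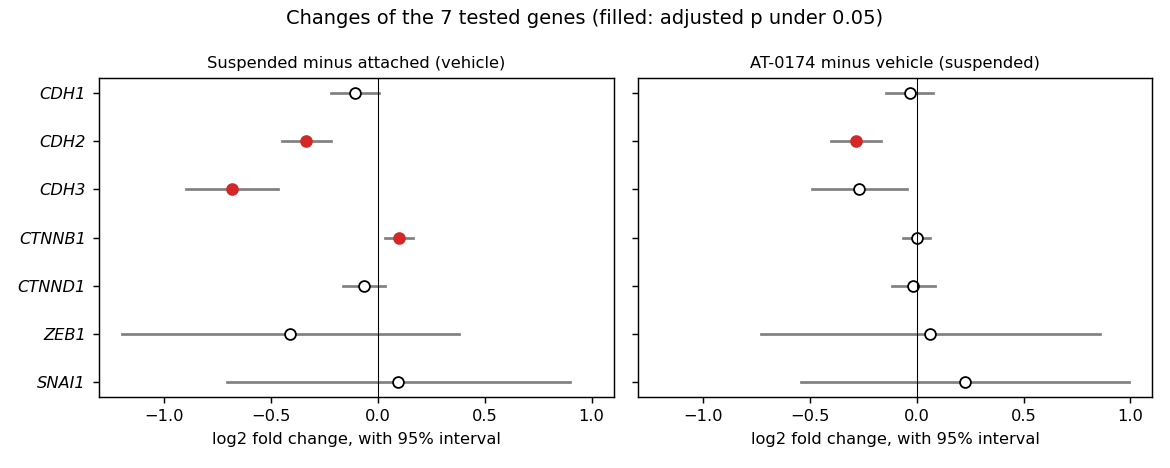
Log2 fold change (x axis) of the 7 tested genes in suspended against attached cells and in AT-0174 against vehicle, with 95% intervals as lines and filled points for an adjusted p under 0.05. *CDH2* is filled in both panels at -0.34 and -0.28, *CDH3* and *CTNNB1* only on the left, and the intervals of *ZEB1* and *SNAI1* span more than 1 unit.

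*CDH2* (N-cadherin, the cadherin of neural and mesenchymal cells, chr18:27932879-28177946 on the minus strand of GRCh38) was lower in suspension and lower again with AT-0174. Attached cells had 22.3, 21.9 and 22.6 CPM, suspended cells with vehicle 17.1, 17.1 and 18.7 CPM, and suspended cells with AT-0174 13.997, 15.0 and 14.5 CPM. The 3 conditions did not overlap, and the values fell at each step. The fall in suspension was 0.34 on the log2 scale (SE 0.05, adjusted p = 0.00131), or 20.7%, and was called under all 15 alternatives tried. The fall with AT-0174 was 0.28 (SE 0.05, adjusted p = 0.0275), or 17.9%. This second call rested on all 6 libraries, since leaving out any 1 of them, vehicle or AT-0174, raised the adjusted p to between 0.0528 and 0.128, with a log2 fold change from -0.31 to -0.24. With only the 6 libraries of the comparison in the fit it was 0.0648, and with counts rebuilt from TPM 0.199.

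The sequence before the start site of *CDH2* is shown because it is the only one of the 10 genes that changed in both comparisons. It holds the 250 bases before the start at position 28177130, intronic for transcripts with a start further upstream, from the RefSeq promoter window on GRCh38.p14, chr18:28177131-28177380, written 5′ to 3′ on the minus strand. Capitals mark GCGTG, the core of the response element of the aryl hydrocarbon receptor (the receptor that kynurenine, a product of TDO2 and IDO1, can activate), read here on the opposite strand.
CDH2: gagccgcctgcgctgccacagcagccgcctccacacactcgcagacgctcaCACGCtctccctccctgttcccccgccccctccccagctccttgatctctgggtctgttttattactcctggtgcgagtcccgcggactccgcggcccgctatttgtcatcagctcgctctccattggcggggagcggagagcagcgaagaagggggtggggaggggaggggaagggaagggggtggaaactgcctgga
The core occurred 1 time here and was not found in the other *CDH2* window, and it occurred on either strand in 32.2% of all 35116 windows of this length. The E-box CACCTG, a site of the SNAI and ZEB factors, was found on neither strand here and in 17.5% of all windows. RefSeq windows were found for 5 of the 10 genes (*CDH2*, *CTNNB1*, *ZEB1*, *ZEB2* and *VIM*). Of the others, *ZEB1* held CACCTG in 2 of its 7 windows, whereas *CTNNB1*, *ZEB2* and *VIM*, with 1 window each, held it in none. The core GCGTG was also in the *ZEB2* window (2 matches) and in 2 of the 7 *ZEB1* windows, and in none of *CTNNB1* and *VIM*. A match of letters is no evidence of binding.

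*CDH3* (P-cadherin, of basal epithelium, chr16:68636189-68727468) fell furthest in suspension. Attached cells had 8.37, 8.60 and 8.60 CPM, against 5.19, 5.51 and 5.21 CPM in suspension with vehicle. The 2 conditions were far apart relative to their spread, and the fall was 0.68 on the log2 scale (SE 0.10, adjusted p = 0.000823), or 37.7%. It was called under all 15 alternatives. With AT-0174 the values were 4.49, 3.75 and 4.94 CPM, all below those of the vehicle libraries, but the change of -0.27 (SE 0.10, 95% interval -0.49 to -0.05) had an unadjusted p of 0.0211 and an adjusted p of 0.41. Most reads of *CDH3* were assigned to 2 transcripts, CDH3-203, annotated as a target of nonsense-mediated decay, with 1029 estimated counts over the 9 libraries, and the coding CDH3-202, with 846. The share of CDH3-203 ranged from 17.8% to 65.8% of *CDH3* TPM between libraries of the same condition, so no order of its transcripts could be read.

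*CDH1* (E-cadherin, the main cadherin of epithelia, chr16:68737292-68835537) passed the threshold in neither comparison. It had 54.0, 49.8 and 58.3 CPM when attached, 50.3, 48.9 and 51.2 CPM in suspension with vehicle, and 48.0, 50.2 and 48.8 CPM with AT-0174. The conditions overlapped. The log2 fold change was -0.11 in suspension (95% interval -0.22 to 0.00, adjusted p = 0.158) and -0.03 with AT-0174 (95% interval -0.15 to 0.08, adjusted p = 0.916). Without attached replicate 2, the lowest of the 3 attached libraries, the fall in suspension was 0.16 with an adjusted p of 0.0347.

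The TPM of *CDH1* behaved differently from its counts. It was 25.8, 28.1 and 28.7 TPM when attached, 28.4, 29.6 and 29.9 TPM in suspension with vehicle, and 21.7, 23.7 and 20.7 TPM with AT-0174, where it lay below all other libraries. This followed CDH1-208, a retained-intron transcript of 282 bases, which held 10.8% to 34.1% of *CDH1* TPM in vehicle libraries and 10.3%, 14.1% and 0.00% with AT-0174, from only 182 estimated counts in all 9 libraries. Without it, *CDH1* lay between 19.5 and 23.0 TPM in every library, and the mean difference between AT-0174 and vehicle in suspension fell from -7.25 to -0.34 TPM. In counts rebuilt from TPM, the log2 fold change with AT-0174 was -0.37 with an adjusted p of 0.0825.

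N-cadherin held a minor part of the cadherin RNA in all 3 conditions. *CDH2* held 21.7%, 19.6% and 20.9% of the summed TPM of *CDH1*, *CDH2* and *CDH3* in attached cells, and 18.5%, 18.8% and 19.3% once suspended with vehicle. The share was lower in every suspended library, with a mean difference of -1.87 percentage points and p = 0.10 in a two-sided exact permutation test, the smallest p that 3 against 3 libraries allow. With AT-0174 the share was 19.2%, 19.4% and 20.2%, 0.73 points higher than with vehicle (exact permutation p = 0.20), and overlapped with vehicle. Taken from estimated counts instead, the difference was -2.76 points with AT-0174 (21.4% against 24.1%, exact permutation p = 0.10) and -2.15 points in suspension (exact permutation p = 0.10). Without CDH1-208 in the TPM sum, an alternative added after the values were seen, the share was 23.3%, 23.9% and 24.4% when attached, 23.0%, 25.1% and 24.2% in suspension with vehicle and 20.6%, 21.7% and 20.2% with AT-0174. The suspension difference then turned to 0.26 points with overlap (exact permutation p = 0.80), and that with AT-0174 to -3.27 points with none (exact permutation p = 0.10). The direction in both comparisons thus depended on how *CDH1* was measured.

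Of 19 other cadherins listed, 3 had enough counts to be tested and 15 had at most 3 counts in every library. *CDH24*, a type II cadherin gene, was lower in suspension (28.2 against 21.5 CPM, log2 fold change -0.39, SE 0.06, adjusted p = 0.000813) and kept that call without any single library. It did not pass the threshold with AT-0174. *CDH7*, at 4.61 to 6.12 TPM over the 9 libraries, and *CDH26* passed in neither comparison. The mesenchymal cadherin *CDH11* and the endothelial *CDH5* had at most 3 counts.

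*CTNNB1* (β-catenin, chr3:41194741-41260096) rose slightly in suspension. Attached cells had 220, 221 and 214 CPM, against 229, 234 and 237 CPM in suspension with vehicle. The conditions did not overlap, but the rise of 0.10 on the log2 scale (SE 0.03, adjusted p = 0.0353), or 6.97%, stood close to the threshold. The call was lost without any 1 of 5 libraries, all but suspended vehicle replicate 1, with adjusted p between 0.0605 and 0.109, and with only 6 libraries (0.0652), without the filter on low counts (0.0604) and with counts rebuilt from TPM (0.696). With AT-0174 it had 238, 229 and 233 CPM, a log2 fold change of 0.00 with a 95% interval of -0.06 to 0.06.

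*CTNND1* (p120-catenin, chr11:57753243-57819546) passed the threshold in neither comparison as a whole, but the transcripts it was assigned to differed between conditions. It had 356, 359 and 335 CPM when attached, 353, 330 and 321 CPM in suspension with vehicle, and 341, 311 and 340 CPM with AT-0174. The conditions overlapped, and the log2 fold changes were -0.07 in suspension (95% interval -0.17 to 0.03, adjusted p = 0.341) and -0.02 with AT-0174 (95% interval -0.12 to 0.08, adjusted p = 0.962).

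Many forms of p120-catenin arise from several start codons and from alternative exons, and differ between epithelial and mesenchymal cells. An alternative exon of 87 bases, the exon before the last, lies at chr11:57815915-57816001 on the plus strand of GRCh38 and is wholly coding. It adds 29 codons in frame just before the stop codon, and matches in place and length the exon usually called B. Its sequence is shown because its use is what differed, with the 30 coding bases before it and the 12 bases after it up to the stop codon, from GRCh38. Capitals mark the exon in the transcript that holds it, and the other line is the transcript that skips it.
CTNND1-224: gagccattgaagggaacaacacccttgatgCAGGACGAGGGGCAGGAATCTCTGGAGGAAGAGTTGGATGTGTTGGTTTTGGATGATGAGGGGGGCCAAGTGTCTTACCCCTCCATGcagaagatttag
CTNND1-222: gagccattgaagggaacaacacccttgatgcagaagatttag

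Transcripts with the 87-base exon held 46.3%, 47.3% and 48.0% of the TPM of all *CTNND1* transcripts that span it in attached cells. They held 58.1%, 60.3% and 64.0% in suspended cells with vehicle, and 64.9%, 71.2% and 66.4% with AT-0174. The 3 conditions did not overlap, and the share was higher at each step. The mean was 47.2% ± 0.849 in attached cells, 13.6 percentage points higher in suspension, at 60.8% ± 2.98, and a further 6.69 points higher with AT-0174, at 67.5% ± 3.30 (SD, n = 3 each). From estimated counts instead of TPM, the differences were 13.8 and 6.87 points, and leaving out any 1 library left them between 12.0 and 15.0 points and between 4.84 and 8.28 points. The exon was picked after the values had been seen, so no test is given.

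The difference lay mainly between the transcripts whose sequences are shown above, annotated at 5814 and 5727 bases. CTNND1-224, with the exon, held 40.8%, 41.1% and 40.7% of *CTNND1* TPM when attached, 49.3% to 55.9% in suspension with vehicle and 56.0% to 59.9% with AT-0174. CTNND1-222, without it, held 21.2%, 17.5% and 17.9% when attached, 3.44% to 8.95% in suspension with vehicle, and 2.59%, 0.00% and 0.00% with AT-0174. CTNND1-207 and CTNND1-229, which skip the exon as well, overlapped between all conditions. A 72-base exon nearer the 5′ end, present in 89.7% to 93.1% of spanning TPM, also overlapped. Salmon divides reads between overlapping transcripts by estimate, and no reads across the exon junctions were counted here. Of 5 *CTNND1* transcripts with a mean share between 5% and 95%, 2 had shares that did not overlap between attached and suspended cells, and 2 between vehicle and AT-0174. Among 33166 such transcripts of all tested genes with at least 100 counts in every library, 17.4% and 8.8% did not overlap. Of the 23 such transcripts of all 10 genes, 4 did not overlap in suspension and 6 with AT-0174, among them 1 and 2 of 4 for *CDH1* and 1 and 2 of 8 for *CTNNB1*.

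**Figure D3:**
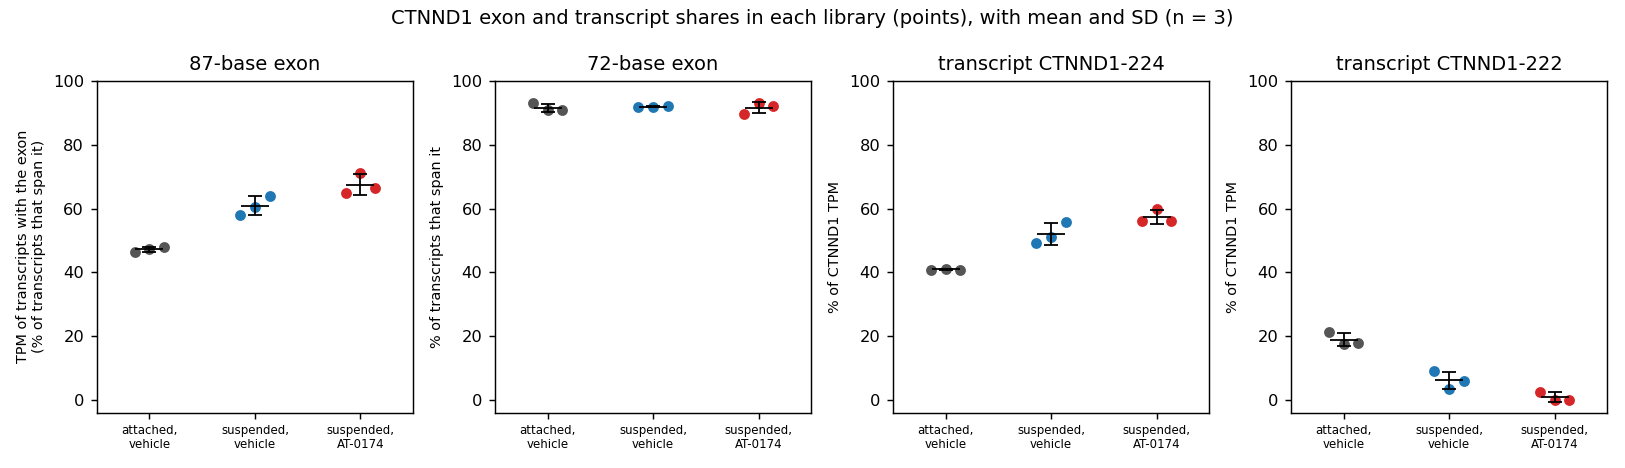
Share of TPM (y axis, percent) in each library for the 87-base and the 72-base exon of *CTNND1*, among transcripts that span each, and for transcripts CTNND1-224 and CTNND1-222 among all *CTNND1* transcripts, with mean and SD of 3 libraries. The 87-base exon lies at 46.3–48.0%, then 58.1–64.0% and 64.9–71.2%, while the 72-base exon stays near 92.0%.

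The EMT factors and vimentin gave few counts in every condition. *ZEB1* (chr10:31318495-31529814) had 27, 14 and 20 counts when attached, 18, 21 and 12 in suspension with vehicle, and 24, 11 and 22 with AT-0174. *SNAI1* (chr20:49982980-49988886) had 8, 14 and 20 counts, then 18, 16 and 16, then 17, 19 and 26. Both overlapped in all conditions and passed the threshold in neither comparison. At this depth their 95% intervals were wide, with *ZEB1* in suspension at -0.41 on the log2 scale (-1.20 to 0.38) and with AT-0174 at 0.06 (-0.73 to 0.86). *SNAI1* was at 0.09 (-0.71 to 0.90) in suspension and at 0.23 (-0.54 to 0.99) with AT-0174, so a 1.5-fold change of either gene was not detectable at this depth.

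*ZEB2*, a paralog of *ZEB1*, had 0 to 2 counts per library. *VIM*, which encodes the main intermediate filament of mesenchymal cells, had 3, 1 and 2 counts when attached, 0, 0 and 2 in suspension with vehicle, and 1, 1 and 0 with AT-0174. *SNAI2* had 0 counts in 8 libraries, which allows up to 0.0819 CPM, and 5 in AT-0174 replicate 1, all assigned to a retained-intron transcript. No change could be read from such counts.

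Of 15 other EMT factors, 7 had enough counts to be tested, and *TWIST1* and *TWIST2* had 0 counts in every library. In suspension 3 were higher and 1 lower (median log2 fold change 0.01), beside 10.4% and 10.8% of all genes tested, and with AT-0174 none passed. Among those higher were the developmental factors *SOX9* (log2 fold change 0.18) and *SOX4* (0.13), but each lost the call without 4 of the single libraries, with adjusted p up to 0.117 and 0.162. *TCF3*, which encodes the E-box binding E12 and E47 proteins, was lower by 0.14 (SE 0.03, adjusted p = 0.00605), a call lost under 1 of the alternatives.

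Of 22 mesenchymal markers, 8 were tested and 10 had at most 3 counts in every library. In suspension 3 were lower and none higher (median -0.18), beside 10.8% of all genes called lower and 10.4% called higher. *COL1A1*, a chain of type I collagen, fell from 137 to 113 CPM (log2 fold change -0.28, SE 0.05, adjusted p = 0.00182). *TNC*, encoding the matrix glycoprotein tenascin-C, was the most abundant at 396 to 506 TPM and was lower by 0.12 (adjusted p = 0.0378), a call lost without 5 of the 6 single libraries (adjusted p up to 0.143). *S100A4* was the third, at a mean of 0.235 CPM. With AT-0174 none passed by edgeR, while the alternative tools DESeq2 and limma-voom each called *TNC*. The summed level of the 22 was 530 to 574 TPM in suspension with vehicle and 465 to 501 TPM with AT-0174.

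Of 19 factors that hold the epithelial state, 17 were tested, and 7 were higher, none lower and 10 not past the threshold in suspension (median 0.09), beside 10.4% of all genes called higher. *FOXA1*, a pioneer factor of luminal cells, rose from 589 to 705 CPM (log2 fold change 0.26, SE 0.03, adjusted p = 0.000114), and *EHF*, an epithelial ETS factor, by 0.18 (SE 0.03, adjusted p = 0.000968). *GRHL3*, a grainyhead factor of epithelial barriers, rose in suspension by 0.16 (adjusted p = 0.015) and was the only one of the 17 that passed with AT-0174, at 0.23 (SE 0.04, adjusted p = 0.0213), a call lost without 5 of the 6 single libraries (adjusted p 0.0666 to 0.115). *KLF4* (0.20) and *OVOL1* (0.24) were higher in suspension, but not without some single libraries (adjusted p up to 0.0895 and 0.0708). *GRHL2* (33.4 to 40.2 TPM), *OVOL2* (12.7 to 16.3 TPM) and the splicing factor *ESRP1* (84.4 to 96.1 TPM) passed in neither comparison. *MIR200CHG*, the host gene of miR-200c and miR-141, which repress *ZEB1* and *ZEB2*, was read at 1.76 to 4.89 TPM. This rested on at most 25 estimated counts in any library, a mean of 0.424 CPM. The gene passed in neither comparison, with an SE of 0.37 on the log2 scale in each, and the mature miRNAs were not measured.

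Of 20 epithelial markers, all were tested, and 7 were higher, none lower and 13 not past the threshold in suspension (median 0.07). Beside this and the other suspension counts below, 10.4% of all genes tested were called higher and 10.8% lower. *CLDN7*, *CLDN3* and *CLDN4*, claudins of the tight junction, rose by 0.27, 0.23 and 0.18 (adjusted p = 0.000138, 0.00702 and 0.00823). *KRT19*, a simple-epithelial keratin, and *MAL2*, of apical transport, rose by 0.15 and 0.20, but lost the call without some single libraries (adjusted p up to 0.0778 and 0.0817). With AT-0174, *CLDN4* alone passed, from 118 to 137 CPM (log2 fold change 0.22, SE 0.04, adjusted p = 0.0221), and lost the call without 5 of the 6 single libraries (adjusted p 0.0554 to 0.0986). At an unadjusted p under 0.05 there were 10 of the 20, beside 1401 of all 15528 genes, and DESeq2 called 3 (*CLDN4*, *CLDN3* and *KRT7*, the last named after its values were seen). Of the 10 luminal line markers, 5 were higher in suspension and none lower, and their summed level was 6002 to 6239 TPM when attached and 7146 to 7200 TPM when suspended, both with vehicle. The lists overlap. Of these 5, *FOXA1* and *SPDEF* were already counted among the factors that hold the epithelial state, and *KRT19* among the epithelial markers. Of the 8 basal markers, 4 were tested and 1, *MYLK* (myosin light chain kinase), was lower by 1.12 on the log2 scale (adjusted p = 0.00542), a call lost under 1 of the alternatives. The summed level of the 8 was 5.63 to 6.38 TPM when attached and 4.56 to 5.08 TPM when suspended. The part of these marker shifts in the cadherin results was not tested.

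Among the partners of the cadherins, α-catenin (*CTNNA1*, 239 to 289 TPM) and plakoglobin (*JUP*, 257 to 306 TPM) passed the threshold in neither comparison. Of 11 other catenins and related proteins, 9 were tested, and 2 were higher and 3 lower in suspension (median 0.01), beside 10.4% and 10.8% of all genes tested. *ARVCF*, a relative of p120-catenin, fell from 102 to 81.0 CPM (log2 fold change -0.33, SE 0.07, adjusted p = 0.00457), and *PKP4*, another p120 relative, by 0.17 (SE 0.04, adjusted p = 0.00661). The call of *PKP4* was lost under 1 of the alternatives. *CTNNAL1*, an α-catenin relative, was lower by 0.17 and *CTNNBIP1*, an inhibitor of β-catenin, higher by 0.16, but both lost the call without 4 or 5 of the single libraries (adjusted p up to 0.132 and 0.125).

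*VCL*, encoding vinculin, which binds α-catenin at adherens junctions and talin at focal adhesions, moved in opposite directions. It rose from 132 to 147 CPM in suspension (log2 fold change 0.16, SE 0.03, adjusted p = 0.00285) and was at 116 CPM with AT-0174 (log2 fold change -0.34, SE 0.03, adjusted p = 3.74e-05). This was the only gene of the 9 that passed with AT-0174, and leaving out any 1 library kept the adjusted p at or under 0.000472.

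Of the 12 nectins and junction linkers, all tested, 2 were higher and 1 lower in suspension (median 0.01). Beside this and the other suspension counts below, 10.4% of all genes tested were called higher and 10.8% lower. *PLEKHA7*, a linker bound to p120-catenin, was lower by 0.33 (SE 0.06, adjusted p = 0.00301), and the polarity gene *PARD3* was higher by 0.18 (SE 0.04, adjusted p = 0.00894). The call of *PARD3* was lost under 1 of the alternatives. *NECTIN2* was higher by 0.10, a call lost without any single library (adjusted p 0.0574 to 0.114). Of 12 desmosome genes, 7 were tested and 4 were higher, none lower (median 0.18), beside 10.4% of all genes called higher. They were *DSP* (0.25), the desmosomal cadherins *DSC2* (0.20) and *DSG2* (0.18), and *PERP* (0.18), and *DSC2* lost the call without attached replicate 3 or suspended vehicle replicate 1 (both adjusted p 0.051). Of 14 tested tight junction genes, 4 were higher and 2 lower (median 0.05), namely the 3 claudins above and *OCLN* (occludin, 0.18, adjusted p up to 0.126 without single libraries), against *PATJ* (-0.16) and *MARVELD3* (-0.13), the last 2 named after their values were seen. With AT-0174, no nectin, linker or desmosome gene passed. Of 13 genes of cadherin trafficking, shedding and turnover, 4 were higher and 1 lower in suspension (median 0.04), led by *RAB11A*, a recycling GTPase, at 0.22 (SE 0.04, adjusted p = 0.00174), and none passed with AT-0174.

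In the β-catenin pathway, some genes listed as feedback targets were higher and some partners lower in suspension. The target list shares *LEF1* and *TCF7* with the partner list and *AXIN2* with the destruction complex list. Of 10 tested targets, 4 were higher and none lower (median 0.13), beside 10.4% of all genes called higher and 10.8% called lower. They were *MYC* (0.48, SE 0.05, adjusted p = 4.38e-05), *ZNRF3* (0.25), *NKD1* (0.22) and *CCND1* (0.17), all of which also respond to other pathways or act as Wnt inhibitors. The other 6 did not pass, with *AXIN2* at -0.09 (adjusted p = 0.547), *LEF1* at -0.22, *TNFRSF19* at -0.24, *RNF43* at -0.03, *NKD2* at 0.09 and *SP5* at 0.44. *SP5* and *TNFRSF19* had at most 28 and 27 counts in any library, and wide errors (SE 0.31 and 0.33). Of 8 tested transcription partners, 3 were lower and none higher (median -0.15), with *TCF7L2*, a DNA-binding partner of β-catenin, at -0.28 (SE 0.05, adjusted p = 0.00243) and *BCL9L*, a coactivator, at -0.24 (SE 0.05, adjusted p = 0.00594). *TCF7L1*, at a mean of 0.691 CPM, was the third. Of 13 destruction complex genes, 3 were higher and 1 lower (median 0.02). *APC2* rose by 0.21 in suspension (adjusted p = 0.00491) and was the only gene of the 3 lists to pass with AT-0174, at -0.23 (SE 0.04, adjusted p = 0.0221), a call lost without any single library (adjusted p 0.0528 to 0.106).

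**Figure D4:**
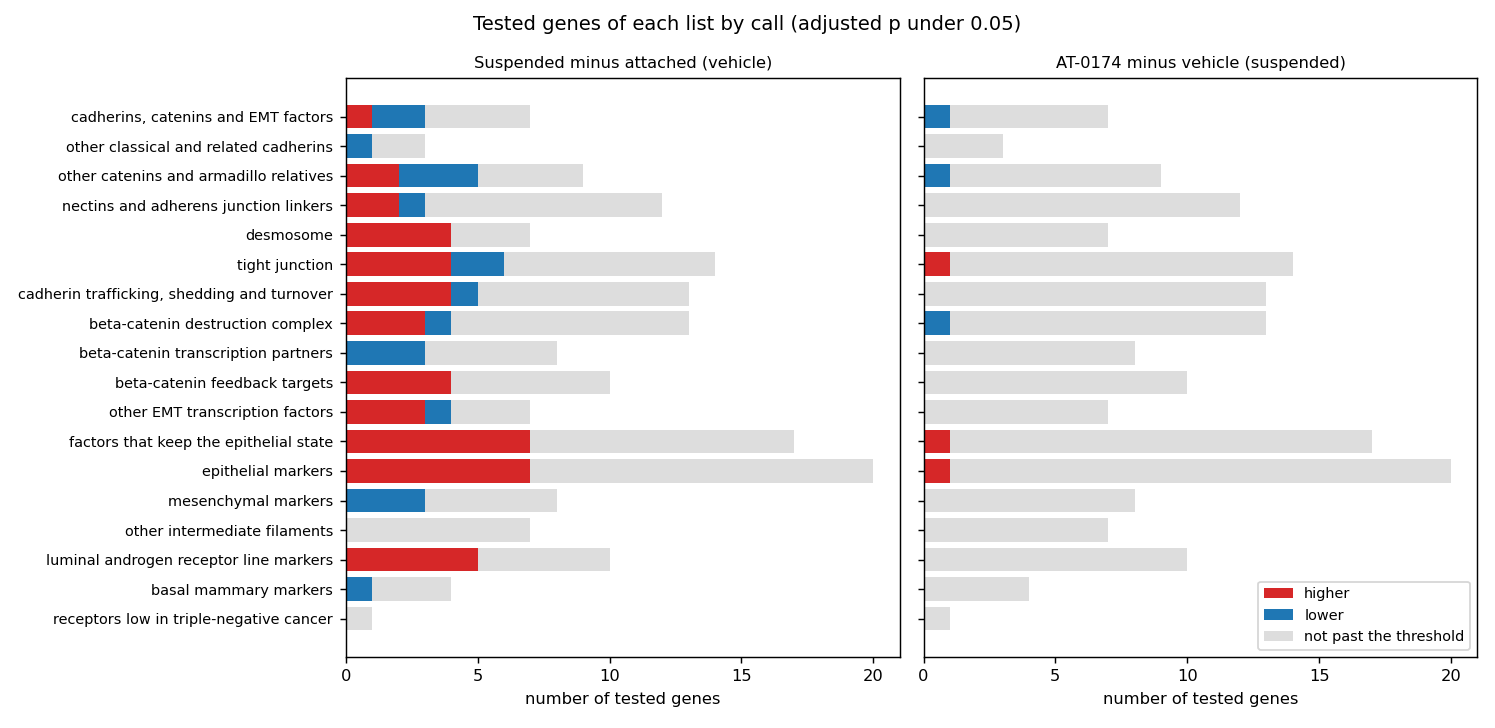
Number of tested genes (x axis) in each list that were higher, lower or not past the threshold in suspended against attached cells and in AT-0174 against vehicle. Calls are spread over most lists on the left, whereas on the right each list has at most 1.

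Of the 7 other intermediate filament genes tested, none passed in either comparison by edgeR, DESeq2 or limma-voom. At an unadjusted p under 0.05 by edgeR there was 1 in suspension and 2 with AT-0174. Over all 15528 genes tested, 5290 were under it in suspension and 1401 with AT-0174. Taken over the 12 lists with tested genes and 0 calls by edgeR with AT-0174, 12 of 89 genes had an unadjusted p under 0.05, and 1 was called by DESeq2 and 1 by limma-voom, in both cases *TNC*. *KRT8* and *KRT18*, the keratin pair of simple epithelia, were read at 779 to 877 and 695 to 869 TPM, beside a *VIM* level of at most 0.0435 TPM.

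The genes whose log2 CPM followed each member most closely over the 9 libraries are given as a description, since the points share their libraries and 3 conditions. Among 12770 genes with a mean of at least 1 CPM, *CDH2* was followed by *SMURF2* (Pearson r = 0.979), *ABCC6* (0.975) and *HEG1* (0.972). *CDH3* was followed by *LIMK2* (0.987), *ZBED3* (0.986) and *LTBP1* (0.985), and *CTNNB1* by *MTMR6* (0.986), *USP14* (0.981) and *MTPN* (0.979). For *CDH1*, the nearest were *DLX4* (0.983), *SRCIN1* (0.958) and ENSG00000258727 (0.950). For *ZEB1*, with 11 to 27 counts, they were *NKAIN2* (0.926), *ZNF607* (0.924) and ENSG00000271936 (0.890).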

How the data were processed

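RNA from MDA-MB-453 cells was sequenced in 9 libraries. Per the labels and the paper's methods, the authors trimmed reads with Trim Galore 0.6.7 and Cutadapt 3.4, aligned them with STAR 2.7.9a to GRCh38 with Ensembl release 104, and quantified them with Salmon 1.10.1. The kit is named differently by the labels and the methods, and strandedness is not given in the sources used here, so genes and antisense partners may share reads. The deposited values are estimated counts per gene, not normalized, and the authors' Salmon estimated counts and TPM per transcript. TPM divides by effective length and scales to a fixed total, so a short transcript with few reads can move it.

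After rounding, the estimated counts of 15528 genes passed filterByExpr (edgeR 4.0.16 under R 4.3.3) and were TMM-scaled. The 9 libraries were fitted together by quasi-likelihood, with 1 coefficient for each condition, a procedure tested on simulated data. Intervals use the t distribution with the fit's degrees of freedom. The alternatives were DESeq2 1.42.0 and its size factors, limma-voom (limma 3.58.1), other filters, 6 libraries alone, counts rebuilt from TPM, leaving out each library, blocking on the replicate number, and a threshold of 0.01. Exon positions came from GENCODE release 44. Shares of exons and transcripts have no test.

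The members and the 19 other lists were chosen with earlier results of these data known. Named were all members, up to 4 called genes per list and comparison with at least 1 CPM and the largest change, 7 partners or regulators, and the 3 genes nearest in pattern to members. Genes outside this rule were named to complete a count or give a level, after their values were seen. Of the listed symbols, *PALS1* was not found. The table held 0 rows without a name. Of the called genes, 1 that the rule names is not reported here.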

Additional observations from a re-analysis of the deposited data

How the results depend on the processing

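The falls of *CDH2* and *CDH3* in suspension kept their call under every alternative. Members called in suspension numbered 2 or 3 throughout. With AT-0174 the 1 member called, *CDH2*, was lost (0 called) with counts rebuilt from TPM, with only 6 libraries, at a threshold of 0.01, and with any library left out (0 in each case). All genes called in suspension numbered 1725 with counts rebuilt from TPM, 1405 at a threshold of 0.01 and 1935 to 2693 with a library left out. With AT-0174 they numbered 239 by DESeq2, 35 from TPM, 499 without the filter, 52 at 0.01 and 63 to 86 with a library left out. The cause was not tested.

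These directions turned. For *CTNNB1* with AT-0174 the log2 fold change was 0.021 from TPM, 0.0044 without the filter, 0.0012 with 6 libraries, and -0.019 to 0.013 with a library left out. With a library left out, *CTNND1* with AT-0174 ran from -0.050 to 0.026, *ZEB1* with AT-0174 from -0.16 to 0.30, and *SNAI1* in suspension from -0.19 to 0.41. The *CDH2* share of cadherin TPM, 0.73 points higher with AT-0174, was -2.76 points from estimated counts and -3.27 points without CDH1-208, and its suspension difference turned from -1.87 to 0.26 points without CDH1-208. The difference in *CDH1* TPM in suspension turned from 1.79 to -1.43 TPM without CDH1-208. Leaving out CDH1-208 was chosen after seeing the data, as was leaving out libraries for the exon share. Of 48 other or member genes named as called in suspension, 24 kept the call under all alternatives other than the threshold of 0.01. That threshold was left out of this count. Of 5 called with AT-0174, 1 kept the call in the same way (*VCL*).

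Same-numbered libraries did not deviate together over all genes tested (correlations -0.065 to 0.053 over 9 pairs, beside -0.086 to 0.089 over 18 differently numbered pairs). No pairing by number was seen, but a weak pairing, or one shared by few genes, could be missed. With the replicate block, 3250 genes were called in suspension and 146 with AT-0174. *CTNNB1* then had an adjusted p of 0.0538 in suspension and *CDH2* one of 0.0365 with AT-0174. Depth limits *ZEB1*, *SNAI1* and the genes near 0.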
